A study of Arabidopsis thaliana with 13 samples.

Results

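Root tips of rRBr seedlings, in which RNA interference lowers RBR in the root meristem, were compared between 10 and 4 das. The comparison used 5 of the 13 arrays of the series, namely 3 rRBr arrays at 10 das and 2 rRBr arrays at 4 das, chosen by line and age from the sample labels. The 2 rRBr arrays at 6 das were used only as intermediate values, and the Col-0 arrays (2 of 4 das, 1 of 6 das, 3 of 10 das) stand beside them as the wild type of the same ages. All seedlings had the Col-0 background and grew on vertical plates in long days, and no line received a treatment. The silencing RNA is driven by the RCH1 promoter, which is active in the root meristem, so that RBR is lowered locally and not lost from the plant. Only this 1 silencing line was profiled. The labels count das from stratification and the study's methods from sowing, and an array holds the RNA of dissected root tips, so that fewer cells of a type and less RNA per cell cannot be told apart in any value given here.

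RBR is the Arabidopsis homologue of the retinoblastoma protein. It binds E2F transcription factors and holds back genes of DNA synthesis and mitosis, and in the root tip it restrains the division of stem cells around the quiescent centre and of the columella. The series was designed to follow, from 4 das onwards, the expression changes that accompany the extra divisions and cell death of this line. RBR has no probe set of its own in the table of genes used here, so that its silencing was not analysed here. RCH1, the receptor kinase gene of the root meristem whose promoter drives the silencing RNA, was detected at log2 RMA values of 9.21 and 9.24 at 4 das against 8.92, 9.36 and 9.26 at 10 das. The groups overlapped and the difference was -0.04 (95% confidence interval -0.47 to 0.38).

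The deposited values are log2 RMA values, so that a difference of 1 is a change of 2-fold. Medians per array lay between 5.96 and 6.06. Replicate 1 of rRBr at 10 das stood apart, with 897 of 22746 probe sets at least 2-fold above the mean of the other 2 arrays of its group, against 39 and 32 for replicates 2 and 3. On the first principal component, which held 51.9% of the variance, this array lay at -50.9, with replicate 1 of rRBr at 6 das at -55.0 and replicate 1 of Col-0 at 10 das at -37.7, whereas the other 10 arrays lay between -5.61 and 26.8. Results are therefore also given without replicate 1 of 10 das.

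From 4 to 10 das a small set of genes rose in rRBr root tips. In the main fit, of all arrays with neither a block nor array weights, none passed the limits for a fall. With the replicate number fitted as a block 7 probe sets fell, and 6 fell without the 3 arrays that stood apart. Array weights also gave falls, counted at the end. The genes that rose were led by AGL42 and HTR6, both of which rose more than 4-fold. AGL42 is a MADS-box transcription factor gene whose enhancer trap line marks the quiescent centre, and HTR6 is a histone H3 gene. The others with a gene of their own encode a lectin-like protein (At5g18470), an F-box protein (At2g32560), an ERF family transcription factor (At4g18450), a MATE family efflux transporter (At1g71140) and a protein kinase (At5g47070). In all, 17 of 22746 probe sets (0.0747%) were higher at 10 das by the limits used throughout, which ask for 1.4-fold or more together with a limma p of less than 0.05 after Benjamini-Hochberg adjustment, and 0 (0%) were lower. At an unadjusted p under 0.05, 611 were higher (2.69%) and 586 lower (2.58%), and the smallest adjusted p among lower probe sets was 0.0575. Of the 17 probe sets, 7 belong to 1 gene, 1 to the pair HTR14 and HTR6, and 9 are not named here. Their fold changes ranged from 1.55 to 4.87.

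AGL42 had log2 values of 3.80 and 4.42 at 4 das, of 6.03 and 5.89 at 6 das, then 6.76, 6.22 and 6.20 at 10 das. Both 4 das arrays lay far below all later arrays, and the 6 das arrays lay close under those of 10 das. The difference was 2.28 ± 0.23 (SE, 3 against 2 arrays), which is 4.87-fold in RMA values (adjusted p = 0.0153). The 4 das values lay near those of PAP85, a seed storage protein gene, on the same arrays (3.93 and 4.02), and whether they were above background was not tested, so that the fold may be larger than the values give. In Col-0 the same probe set had 4.09 and 4.00 at 4 das, 6.08 at 6 das, then 7.16, 7.03 and 6.63 at 10 das, so that AGL42 also rose there, by 2.895 (adjusted p = 0.00246). The change in rRBr minus that in Col-0 was -0.61 and did not pass the test of the difference between the lines (adjusted p = 1.00).

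HTR6 encodes a histone H3 protein, the histone that is wrapped with H4 in the core of the nucleosome. Its log2 values were 4.66 and 4.58 at 4 das, 5.73 and 5.08 at 6 das, then 7.20, 6.70 and 6.68 at 10 das. The 3 ages formed 3 separate ranges, and the lowest 10 das array lay 2.02 above the highest 4 das array, the widest such gap among probe sets of 1 gene that were higher at 10 das. The difference was 2.24 ± 0.21, or 4.72-fold (adjusted p = 0.0153). The Col-0 arrays held HTR6 between 4.02 and 4.33 at all ages, with a difference of 0.12 between 10 and 4 das. PAP85 lay between 3.73 and 4.01 on the Col-0 arrays, and whether HTR6 was above background there was not tested. The change in rRBr exceeded that in Col-0 by 2.12, which did not pass over all probe sets (adjusted p = 0.176). Without replicate 1 of 10 das this excess did not pass either (1.95, adjusted p = 0.197). It passed without the 3 arrays that stand apart (1.89, adjusted p = 0.0172). Of the alternative settings, 10 gave no pass and 2, among them this one, gave a pass, with adjusted p from 0.0070 to 0.850.

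The probe set shared by HTR14 and HTR6 moved with the HTR6 one, and hybridisation of either transcript cannot be told apart in it. It had 3.24 and 3.31 at 4 das, 4.61 and 3.66 at 6 das, then 4.79, 5.06 and 4.91 at 10 das, a difference of 1.65 ± 0.22 (adjusted p = 0.0460). The 4 das values lay below those of PAP85 on the same arrays (3.93 and 4.02), and whether they were above background was not tested. HTR14, a further histone H3 gene, also has a probe set of its own, at the low end of the scale, with 3.44 and 3.44 at 4 das against 4.09, 3.74 and 3.83 at 10 das. Its groups did not overlap, and the difference of 0.45 did not pass (adjusted p = 0.548).

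The F-box gene At2g32560 belongs to a family of substrate adaptors for protein degradation. It had 5.70 and 5.75 at 4 das, 6.57 and 6.41 at 6 das, then 6.87, 7.11 and 7.13 at 10 das, and rose by 1.31 ± 0.13 (adjusted p = 0.0153). Its 3 ages did not overlap, and replicate 1 was the lowest of the 10 das arrays. Values in Col-0 were 5.91 and 5.63 at 4 das against 5.96, 6.18 and 6.28 at 10 das, a difference of 0.37 that did not pass (adjusted p = 0.779).

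At5g18470 encodes a protein with a mannose-binding lectin domain. It had 4.45 and 4.84 at 4 das, 5.29 and 4.71 at 6 das, then 6.31, 6.09 and 5.96 at 10 das, and rose by 1.48 ± 0.18 (adjusted p = 0.0416). At 6 das only replicate 1 lay above both 4 das arrays. The ERF gene At4g18450, of a family that binds DNA in ethylene and stress responses, had 4.40 and 4.49 at 4 das, 4.62 and 4.40 at 6 das, then 5.50, 5.67 and 5.95 at 10 das. It rose by 1.26 ± 0.16 (adjusted p = 0.0416), and its 6 das arrays still lay at the 4 das level, so that only 5.15% of the rise of the mean had taken place by 6 das.

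At1g71140, the efflux transporter gene, had 4.67 and 4.84 at 4 das, 5.22 and 4.93 at 6 das, then 5.84, 5.87 and 5.67 at 10 das, a rise of 1.04 ± 0.12 (adjusted p = 0.0237). The kinase gene At5g47070 showed the smallest of the 17 rises, from 4.91 and 4.86 at 4 das and 4.98 and 4.94 at 6 das to 5.43, 5.59 and 5.53 at 10 das (0.63 ± 0.08, adjusted p = 0.0422). Both genes lay lower on all 10 das arrays of Col-0 than on those of rRBr, between 4.65 and 4.87 for At1g71140 and between 4.53 and 4.57 for At5g47070. The plot of these genes by age shows the 2 lines side by side.

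**Figure D1:**
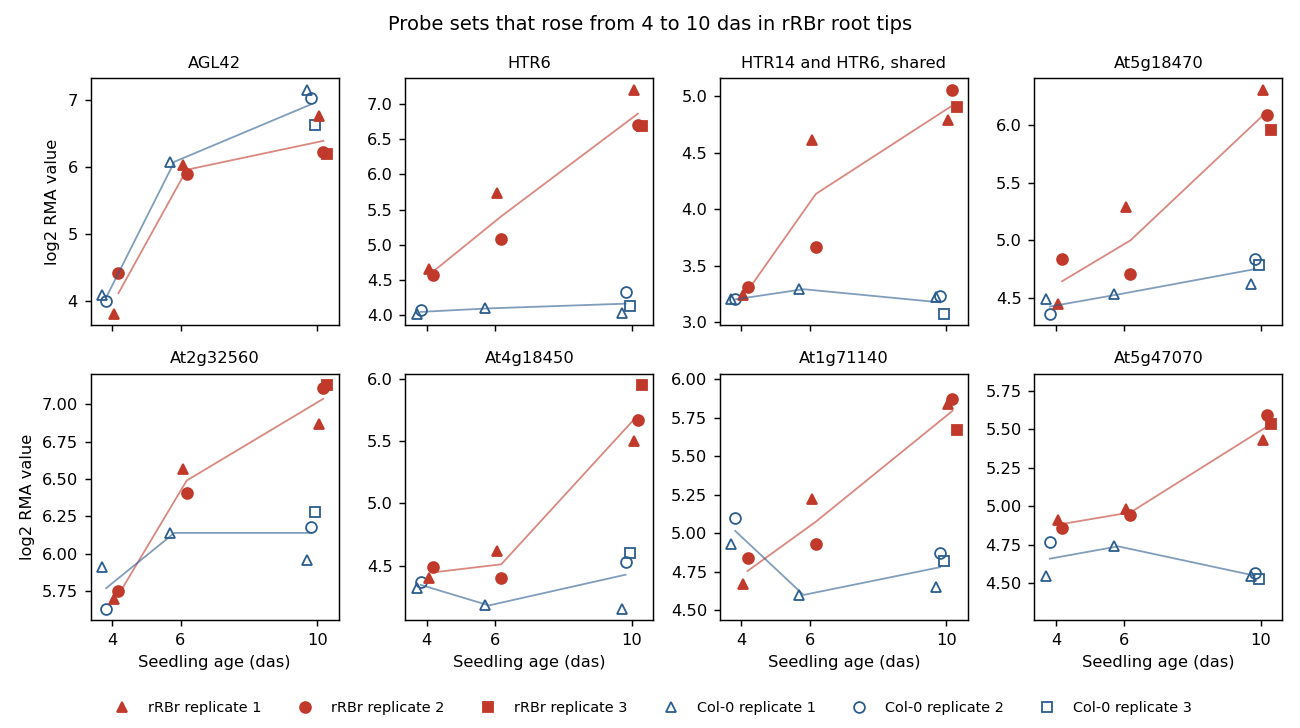
Log2 RMA values (y axis) against seedling age in das (x axis) for the 7 named single genes among the rising probe sets of rRBr and for the probe set shared by HTR14 and HTR6. Each symbol is 1 array, filled red for rRBr and open blue for Col-0, with lines through the group means, and AGL42 passed in both lines, whereas HTR6 stayed between 4.02 and 4.33 in Col-0.

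All 17 rising probe sets had a mean at 6 das between those of 4 and 10 das. So did 456 of the 611 that were higher at an unadjusted p under 0.05 (limma). Over all probe sets, including those with little change, the share was 23.7%. The 17 were called for a clear difference between 4 and 10 das, so that their count is no test of a steady rise. In 12 of the 17 both single 6 das arrays lay between the 2 groups. The share of the rise that the 6 das mean had covered ranged from 5.15% to 87.0%, with a median of 46.9%, and was 81.0% for AGL42, 58.3% for At2g32560, 35.0% for HTR6 and 24.1% for At5g18470. Replicate 1 of 6 das, which resembles replicate 1 of 10 das in its root hair transcripts, was the higher of the 6 das arrays for AGL42, HTR6, At5g18470 and the other named genes that rose. The part of that array in these shares was not tested.

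Without replicate 1 of 10 das, 4 probe sets were higher (0.0176% of 22746) and 0 were lower (0%), with 657 and 439 at an unadjusted p under 0.05. All 4 were among the 17. They were AGL42 (2.10, adjusted p = 0.0426), HTR6 (2.07, adjusted p = 0.0269), At2g32560 (1.395, adjusted p = 0.0269) and 1 unnamed probe set (1.05, adjusted p = 0.0269). The other named genes kept their differences and lost the call, with 1.38 for At5g18470 (adjusted p = 0.0881), 1.37 for At4g18450 (0.0576), 1.02 for At1g71140 (0.0673) and 0.68 for At5g47070 (0.0662). The 17 calls rest on few arrays in other ways too. With replicate 1 or replicate 2 of 4 das left out 0 probe sets passed, and 4 and 7 passed without replicates 2 and 3 of 10 das. When only the rRBr arrays estimated the spread, 0 passed, both with the 7 arrays of the 3 ages (591 higher and 503 lower at an unadjusted p under 0.05) and with the 5 arrays compared (611 and 508).

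**Figure D2:**
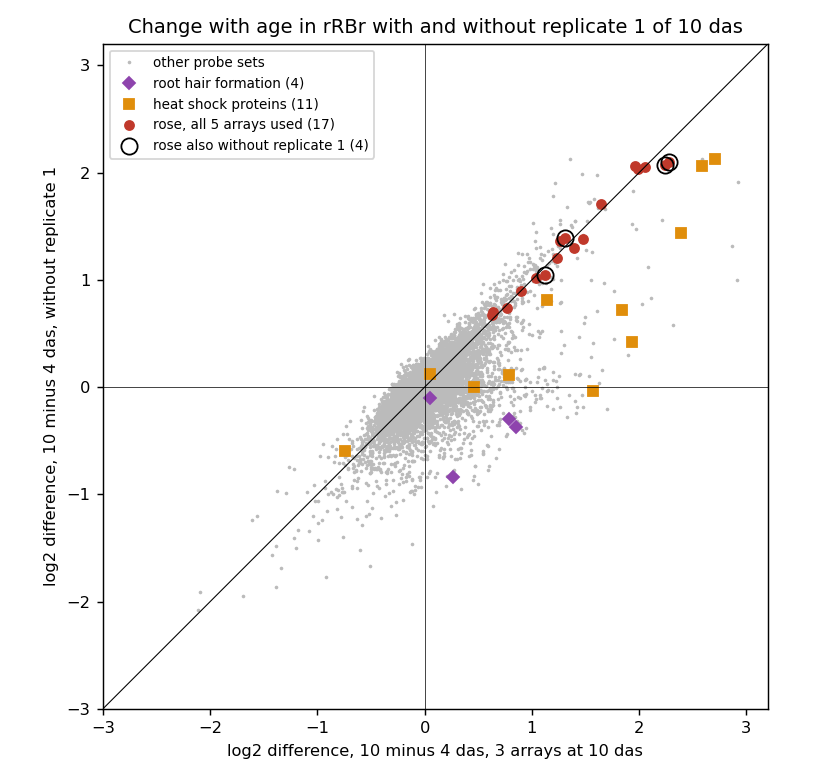
Log2 difference between rRBr at 10 and 4 das without replicate 1 of 10 das (y axis) against the same difference with all 3 arrays (x axis), 1 point per probe set, with the line of equal values. The 17 probe sets that rose lie near the line and 4 of them, ringed, also passed without that array, whereas root hair genes and most heat shock genes lie below it.

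With the replicate number as a block, 29 probe sets were higher (0.127%) and 7 were lower (0.0308%), and 13 of the 17 were among the 29. Same-numbered arrays of different groups deviated together throughout, with correlations from 0.18 to 0.81. AGL42 (2.41), HTR6 (2.29), At2g32560 (1.25), At5g18470 (1.505), At4g18450 (1.16) and At1g71140 (1.06) passed in this fit. At5g47070 (0.63, adjusted p = 0.0558) and the probe set shared by HTR14 and HTR6 (1.67, adjusted p = 0.0558) did not. Further genes that rose were HYH, a bZIP transcription factor gene of light signalling (1.51, adjusted p = 0.0490), LCR68, which encodes a defensin-like protein (1.57, adjusted p = 0.0286), At5g17650 (1.375, adjusted p = 0.0170) and At3g55890 (0.74, adjusted p = 0.0490). HYH had 4.69 and 4.92 at 4 das, 6.06 and 6.27 at 6 das, then 6.15, 6.76 and 5.16 at 10 das, so that replicate 3 lay close to the 4 das level. The genes that fell were At3g49190 (-1.51, adjusted p = 0.0490), At5g62330 (-1.03, adjusted p = 0.0332), At3g49630 (-0.95, adjusted p = 0.0223) and At3g47380 (-0.84, adjusted p = 0.0455), together with 3 unnamed probe sets. At5g62330 had 9.84 and 9.36 at 4 das, 9.12 and 8.98 at 6 das, then 8.88, 8.22 and 8.57 at 10 das, with no overlap between the ages. With both the block and replicate 1 of 10 das left out, 0 passed in either direction (769 higher and 590 lower at an unadjusted p under 0.05). The genes added by the block were named after their values had been seen.

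When all 3 arrays with high root hair transcripts were left out (replicate 1 of rRBr at 6 and 10 das and of Col-0 at 10 das), 42 probe sets were higher (0.185%) and 6 were lower (0.0264%), and 16 of the 17 were among the 42. Of these, 18 higher and 4 lower ones belong to 1 gene. Among the further genes that rose were the Dof family transcription factor gene At1g21340 (1.55, adjusted p = 0.0274), the serine carboxypeptidase-like genes SCPL48 (1.08, adjusted p = 0.0389) and SCPL20 (0.88, adjusted p = 0.0401), and ATG8B, whose product coats the autophagosome (0.89, adjusted p = 0.0334). The lower genes were At3g22060, which encodes a small secreted protein with cysteine-rich repeats (-1.95, adjusted p = 0.0274), At1g66800 (-1.51), At1g21830 (-1.03) and At3g54150 (-0.62). These genes did not pass with all arrays, in which SCPL20 had 7.28 and 7.33 at 4 das against 8.11, 8.04 and 8.32 at 10 das (adjusted p = 0.0550). The names of this paragraph were chosen after their values had been seen.

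Because no fall passed in the main fit, the genes of 1 probe set with the widest gap between the 2 ages were listed after the values had been seen. Over all probe sets the 4 and 10 das arrays did not overlap for 1841 (8.09%) with higher and 2580 (11.3%) with lower values at 10 das, so that a gap as such is common. Among lower genes, At1g33590, a leucine-rich repeat gene, had 8.70 and 8.54 at 4 das, 7.48 and 7.76 at 6 das, then 6.35, 7.61 and 7.22 at 10 das (-1.56, adjusted p = 0.437). At3g22060 had 6.67 and 6.09 at 4 das against 5.20, 4.57 and 4.29 at 10 das (-1.69, adjusted p = 0.139). For both, all 10 das arrays lay below all 4 das arrays, and the Col-0 differences were -1.50 and -1.57, neither of which passed. At2g39980, of an acyltransferase family, had 8.20 and 7.52 at 4 das against 6.71, 6.12 and 6.47 at 10 das (-1.43, adjusted p = 0.324). In Col-0 it fell from 8.80 and 9.55 to 5.89, 6.22 and 5.46 (-3.32, adjusted p = 0.00931), and the difference between the lines of 1.89 did not pass (adjusted p = 0.898).

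Among higher genes that did not pass with all arrays, At4g26880, related to the stigma-specific STIG1 protein, had 7.34 and 7.85 at 4 das, 8.26 and 8.33 at 6 das, then 9.05, 9.06 and 9.23 at 10 das (1.52, adjusted p = 0.246). At4g38410, of the dehydrin family, had 6.37 and 7.10 at 4 das against 8.35, 8.20 and 8.63 at 10 das (1.66, adjusted p = 0.173). In both genes the 2 arrays at 4 das lay farther apart than the 3 at 10 das. MT1C, a metallothionein gene, ran from 8.85 and 9.43 to 12.11, 10.97 and 10.25, with 12.08 on replicate 1 of 6 das (1.97, adjusted p = 0.689), so that its highest values lay on the 2 arrays with high root hair transcripts.

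Genes of DNA synthesis are textbook targets of RBR and E2F, and 6 of them were represented singly. The median difference was 0.01 (range -0.12 to 0.06), beside -0.02 over all probe sets, and 0 of 6 passed, which is read against the 0.0747% of all probe sets that did. The median was 0.11 without replicate 1 of 10 das, on which the 6 genes averaged 7.61 against 8.00 and 7.98 on the other 10 das arrays and 7.90 and 7.87 at 4 das. PRL, a subunit of the MCM helicase that opens DNA at origins, had 9.60 and 9.50 at 4 das against 9.47, 9.76 and 9.60 at 10 das, a difference of 0.06 with a 95% confidence interval of -0.28 to 0.40. The groups overlapped. ICU2, the catalytic subunit of DNA polymerase alpha, differed by 0.01 (-0.33 to 0.35), FEN1, the flap endonuclease of the lagging strand, by -0.09 (-0.47 to 0.29) and PSF2, of the GINS complex, by -0.12 (-0.72 to 0.48), which was 0.10 without replicate 1. The Aurora kinase genes AUR1 and AUR2, which act in mitosis and in the orientation of divisions, differed by -0.19 (-0.62 to 0.25) and -0.16 (-0.69 to 0.37). No cyclin or cyclin-dependent kinase gene of the list has a probe set of its own in the table used here.

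Histone genes other than HTR6 moved less. Of 18 histone genes, 1 rose (HTR6), beside 0.0747% of all probe sets, and 0 fell. A higher mean at 10 das was found for 13, beside 9750 of the 22746 probe sets. The median difference was 0.16, and 0.22 without replicate 1. For 9 of the 18 the 10 das arrays lay above both 4 das arrays and for 3 below, beside 8.09% and 11.3% of all probe sets. As many members were entered with earlier results known, these shares cannot test the list. Among the 9 was HTB6, an H2B gene, with 8.49 and 8.60 at 4 das, 8.77 and 8.78 at 6 das, then 8.94, 8.93 and 8.97 at 10 das (0.40, adjusted p = 0.326), a small difference with little spread at 10 das. The H2B gene HTB10 had 6.51 and 6.70 at 4 das against 6.91, 7.09 and 7.08 at 10 das (0.42, adjusted p = 0.397). The H2B genes HTB1, HTB4 and HTB11, which had values above 10 on all arrays, differed by 0.04, -0.02 and -0.11, and the centromeric H3 gene HTR12 by -0.27 (-0.64 to 0.10). Many of these histone genes had been entered in the list by gene code after earlier results on them were known.

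Inhibitors of cyclin-dependent kinases of the SIAMESE family, which stop division and promote endoreduplication, did not pass in either direction (0 of 5, median 0.16). Over all probe sets 0.0747% were higher and 0% lower, so that 0 calls in a list this short carry little information. SMR8 had 6.85 and 6.73 at 4 das, 7.41 and 7.19 at 6 das, then 7.08, 7.36 and 7.18 at 10 das (0.42, adjusted p = 0.439), and SIM had 9.54 and 9.57 at 4 das against 9.33, 9.06 and 9.18 at 10 das (-0.36, adjusted p = 0.911). SMR8 was thus no higher at 10 than at 6 das, and SIM lay slightly lower at 10 das in all arrays. None of 7 DNA damage response genes passed (0 called), beside 0.0747% of all probe sets. Their median was 0.04, and 0.13 without replicate 1. Their largest difference was 0.32 (-0.32 to 0.95) for At5g60250, which was 0.595 without replicate 1 (adjusted p = 0.901), and the differences of LIG4, the DNA ligase of end joining, and of the helicase genes FANCM and RTEL1 were 0.04, 0.06 and 0.06.

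Among markers of developmental cell death, 0 of 4 passed, beside 0.0747% of all probe sets. SCPL48, a serine carboxypeptidase-like gene expressed in cells that prepare to die, had 8.35 and 8.78 at 4 das, 9.31 and 8.69 at 6 das, then 9.53, 9.67 and 9.62 at 10 das (1.04, adjusted p = 0.164), while Col-0 arrays lay between 8.17 and 8.54 at all ages. DMP4 had 4.19 and 4.46 at 4 das against 5.41, 4.50 and 5.26 at 10 das (0.73). EXI1 ran the other way, from 6.14 and 6.04 to 4.70, 5.29 and 5.59 (-0.90), and PASPA3, an aspartic protease gene, differed by -0.01. In the stem cell niche list 0 of 5 passed, beside the same 0.0747%. JKD, a zinc finger gene of the ground tissue and quiescent centre, had 6.65 and 6.70 at 4 das against 6.32, 6.45 and 6.44 at 10 das (-0.27, adjusted p = 0.373). BBM, an AP2 family regulator of stem cells, and ACR4, a receptor kinase gene of the columella stem cells, differed by 0.01 (-0.63 to 0.64) and 0.04 (-0.37 to 0.45). No gene of the root cap list has a probe set of its own in the table used here.

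**Figure D3:**
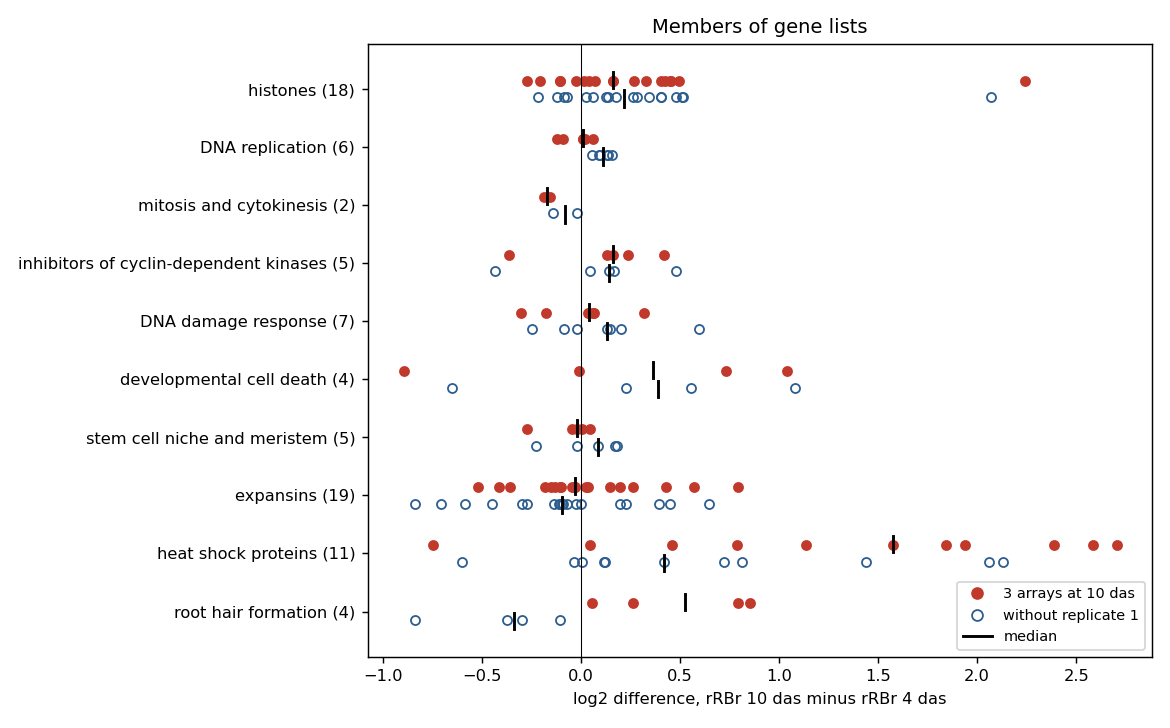
Log2 difference between rRBr at 10 and 4 das (x axis) for the members of 10 gene lists (rows, with the number of probe sets), filled red with all 3 arrays of 10 das and open blue without replicate 1, with the medians as black bars. HTR6 stands apart from the other histones, DNA replication genes lie between -0.12 and 0.06, and the heat shock and root hair medians change from 1.57 to 0.42 and from 0.53 to -0.34 without replicate 1.

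Heat shock genes, which encode chaperones that bind unfolded proteins, had higher means at 10 das in rRBr but spread widely between the 3 arrays and did not pass. Of 11 genes 0 passed, beside 0.0747% of all probe sets. A higher mean at 10 das was found for 10 of them, beside 9750 of the 22746 probe sets. The median difference was 1.57, and 0.42 without replicate 1. HSP23.5, a small heat shock gene of the mitochondrion, had 5.94 and 7.19 at 4 das, 7.04 and 6.50 at 6 das, then 10.42, 9.44 and 7.95 at 10 das (2.71 ± 0.77, adjusted p = 0.502). ROF2, a heat-induced peptidyl-prolyl isomerase gene, had 6.91 and 7.82 at 4 das, 9.22 and 8.39 at 6 das, then 11.00, 10.00 and 8.85 at 10 das (2.58 ± 0.64, adjusted p = 0.365). HSP17.6B, a cytosolic small heat shock gene, had 6.13 and 6.30, then 7.36 and 7.03, then 10.50, 8.27 and 7.04 (2.39, adjusted p = 0.782). In these 3 genes all 10 das arrays lay above both 4 das arrays, and replicate 1 was the highest. Over the list, 6 of the 11 genes had all 10 das arrays above both 4 das arrays and 1 had them below, beside 8.09% and 11.3% of all probe sets. As several members were added with their values known, these shares cannot test the list. The lower gene, At5g47600, had 5.82 and 5.86 at 4 das against 4.80, 4.94 and 5.54 at 10 das (-0.75).

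HSP15.7, HSP22 and HSP26.5 behaved otherwise, since they were high on replicate 1 only. HSP15.7 had 8.64 on that array against 3.95 and 3.68 on the other 2 and 3.94 and 3.76 at 4 das, and its difference was 1.57 with it and -0.04 without it. Replicate 1 of 6 das, which shares the high root hair transcripts, had 3.66. In Col-0 the highest array was replicate 2 of 4 das, with 9.23 for HSP23.5 and 9.50 for ROF2, and the median difference of the 11 genes was -0.25. The difference between the lines was 2.93 for HSP23.5 and 2.76 for ROF2 and did not pass (adjusted p = 1.00 for both). Several genes of this list were added after their values had been seen, and the way the seedlings were handled on each day was not tested.

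Root hair genes, among others, set replicate 1 apart. EXPA18, an expansin gene of root hair cells that loosens the wall, had 5.95 and 5.95 at 4 das against 8.92, 5.49 and 5.81 at 10 das, and PER44, a root hair peroxidase gene, had 6.17 and 6.06 and then 9.43, 5.78 and 5.70. EXPA7 had 6.58 and 5.85 at 4 das against 8.68, 5.26 and 5.49 at 10 das. All 3 were as high on replicate 1 of 6 das (9.03, 9.78 and 8.75) and near the 4 das level on its replicate 2. Of 4 root hair genes with their own probe set 0 passed, beside 0.0747% of all probe sets. Their median difference was 0.53 with replicate 1 and -0.34 without it. PRX72, a class III peroxidase gene, reached 10.01 on that array against 4.52 and 4.09, and F6'H1, of coumarin synthesis, 8.10 against 5.42 and 5.62. GSO1, of the Casparian strip list, had 8.17 against 5.57 and 5.95, and 8.22 on replicate 1 of 6 das. Among probe sets of 1 gene, PRX72 exceeded the mean of the other 10 das arrays most (5.71), and PER44 did so by 3.69. Of the 17 rising probe sets, 6 had their highest 10 das value on replicate 1, and the sizes of the named rises without that array are given above.

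**Figure D4:**
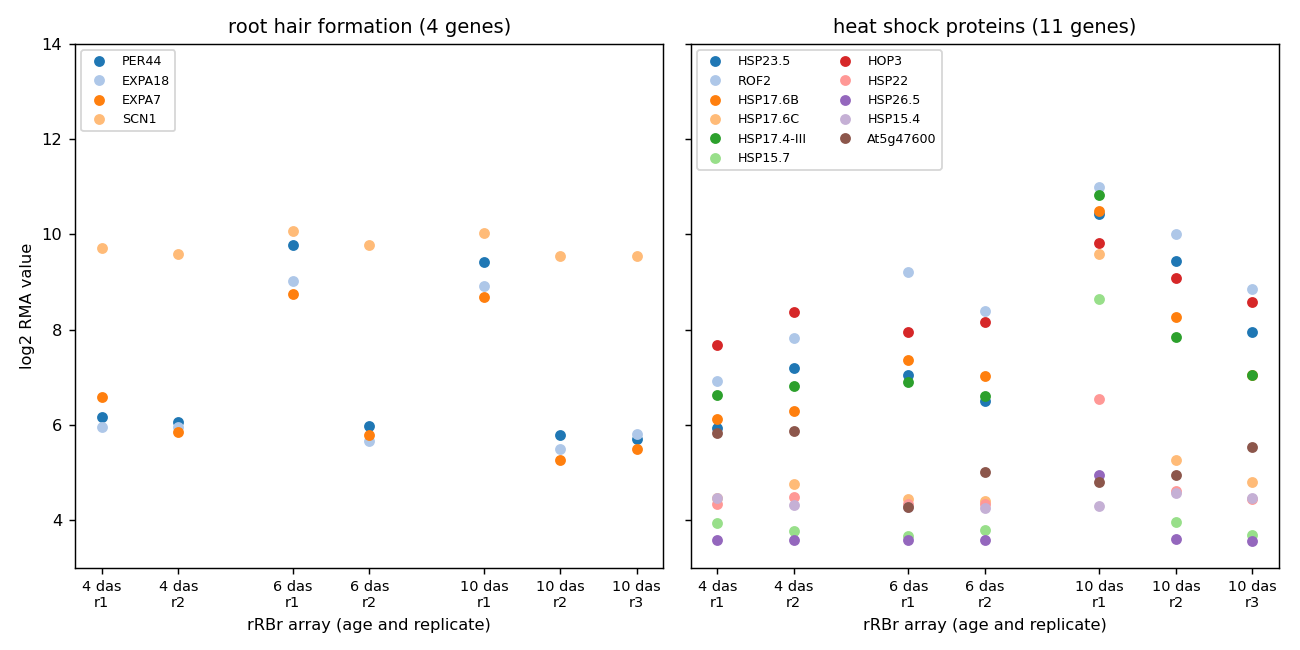
Log2 RMA values (y axis) on each of the 7 rRBr arrays (x axis, age and replicate) of 4 root hair genes (left) and 11 heat shock genes (right), 1 point per gene and array. EXPA7, EXPA18 and PER44 are high on replicate 1 of 6 and of 10 das, whereas HSP23.5, ROF2 and HSP17.6B are highest on replicate 1 of 10 das, at 10.42, 11.00 and 10.50.

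Other lists gave 0 calls in the main fit, beside 0.0747% of all probe sets. The 19 expansin genes, which loosen the wall, had a median of -0.03. The 10 xyloglucan endotransglucosylase genes, which cut and rejoin wall polymers, had a median of 0.15, and of -0.03 without replicate 1. EXGT-A3 differed most among them (0.76, adjusted p = 0.732), and it passed with the replicate block (0.88, adjusted p = 0.0490). Cytochrome P450 genes (22, median 0.07) were led by CYP71B26 (0.99, adjusted p = 0.949), and 29 serine carboxypeptidase-like genes had a median of -0.04, with SCPL48 and SCPL20 above all others. Of 7 WRKY transcription factor genes WRKY22 differed most (0.61, adjusted p = 0.414). Auxin response genes (12, median 0.06) were led by IAA33 (0.53) and flavonoid genes by UGT78D1 (1.22, adjusted p = 0.998), with 3.99 and 5.39 at 4 das against 4.54, 7.30 and 5.89 at 10 das. RCA, rubisco activase, which marks green tissue, differed by 0.48 (adjusted p = 0.703).

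The same ages were compared in Col-0 to see which changes with age were shared by the wild type. There 12 probe sets were higher (0.0528%) and 10 lower (0.044%) at 10 das, with 470 and 578 at an unadjusted p under 0.05. Of the 17 that rose in rRBr, 3 also rose in Col-0, AGL42 and 2 unnamed probe sets, and 10, including these 3, had a higher mean at 10 das there. Over all probe sets the median difference in Col-0 was 0.01. Conversely, all 12 that rose in Col-0 had a higher mean at 10 das in rRBr, and 8 of the 10 that fell in Col-0 had a lower one. Over all 22746 probe sets, 9750 had a higher and 12992 a lower mean at 10 das in rRBr. At3g49160, of the pyruvate kinase family, rose in Col-0 from 3.90 and 3.98 to 5.72, 6.23 and 5.57 (1.90, adjusted p = 0.0365), and in rRBr it had 4.40 and 4.93 at 4 das against 5.86, 6.16 and 5.76 at 10 das (1.26, adjusted p = 0.180). With the replicate block At3g49160 also rose in rRBr (1.37, adjusted p = 0.0133). The block moved the lower probe sets of Col-0 from 10 to 22.

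A change with age that differed between the lines passed for 1 probe set (0.0044%), that of At2g34930, a leucine-rich repeat gene annotated as disease resistance-like, with 695 at an unadjusted p under 0.05 (limma). In rRBr it had 6.23 and 6.25 at 4 das, 6.09 and 6.21 at 6 das, then 6.73, 6.50 and 6.63 at 10 das, a difference of 0.38 that did not pass (adjusted p = 0.329). In Col-0 it fell from 7.12 and 7.19 to 5.80, 5.87 and 5.68 (-1.37, adjusted p = 0.00128). The change in rRBr exceeded that in Col-0 by 1.75 (adjusted p = 0.00452), and 0 probe sets passed when replicate 1 or replicate 2 of rRBr at 4 das was left out. Thus Col-0 lay above rRBr at 4 das and below it at 10 das. None of the 17 rising probe sets passed this test, and 14 had an unadjusted p under 0.05 for it. The 17 were chosen for their change in rRBr, which is part of this difference, so that the count of 14 is no test. A rise called in rRBr and not in Col-0 is not shown to differ between them.

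**Figure D5:**
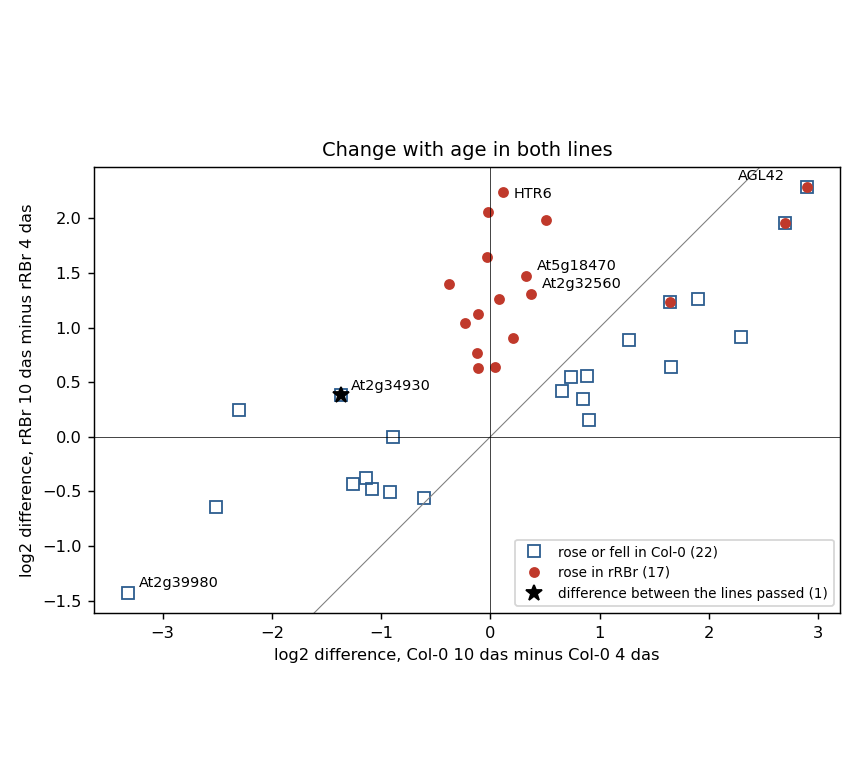
Log2 difference between 10 and 4 das in rRBr (y axis) against that in Col-0 (x axis) for the 17 probe sets that rose in rRBr and the 22 that rose or fell in Col-0, with the line of equal values. AGL42 is far from 0 in both lines and HTR6 only on the y axis. At2g34930, the star, is the 1 probe set that passed the test of the difference between the lines in the main fit. It did not pass when either rRBr array of 4 das was left out.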

How the data were processed

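Expression was measured on 13 Affymetrix ATH1 arrays (7 rRBr, 6 Col-0) of dissected root tips. The authors made the deposited log2 values by RMA (background correction, quantile normalization and 1 summary for each probe set) in Bioconductor, with replicates kept apart and package versions not given in the sources used here. Precision rests on how many arrays a group has, since intensities carry no read depth. Replicates are described as biological, with germination repeated, but not which culture each array came from, so that p-values measure the spread between these arrays.

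Analysis in R 4.3.3 took these values unchanged and dropped 64 AFFX controls from the 22810 probe sets, leaving 22746 to test. The probe table gave 1 gene for 13513 probe sets (13436 matched to RefSeq genes by identifier), more than 1 for 503, while 8730 without an entry go unnamed.

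Limma 3.58.1 (lmFit, contrasts.fit, eBayes) was fitted to 6 groups of line and age, with Benjamini-Hochberg adjustment over all probe sets. Calls needed an adjusted p under 0.05 and a fold of at least 1.4, and the difference between the lines only the adjusted p. The spread was estimated jointly over the 6 groups, and Col-0 at 6 das, being 1 array, adds nothing to it. Replicate numbers come from the labels. All 21 correlations of residuals between same-numbered arrays of different groups lay above 0.1 (0.18 to 0.81), those of Col-0 and rRBr at 10 das being 0.79, 0.60 and 0.63, so that the fit with the number as a block is given beside each result it changes. Residuals in groups of 2 arrays mirror each other, so that these values are not independent. With 3 against 2 arrays an exact permutation test cannot go below p = 0.1 and was not used. The fit was tested on simulated data with errors independent between arrays. That test therefore does not cover the shared deviations of same-numbered arrays.

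Named genes were those of 1-gene probe sets that were called (the 15 largest, and those also called without replicate 1 or with 6 das between), the members called in 46 lists or else the member with the largest difference, and those called for the difference between the lines. Others were named after their values were seen. The comparison, members and lists were chosen with earlier results of these data known, and the histone and heat shock lists were extended, and those of cytochromes P450 and serine carboxypeptidase-like proteins added, after values were seen. Of the 46 lists, 36 had a probe set.

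Alternatives were fits on the rRBr arrays alone, without the 3 arrays that stand apart, with a replicate block, trend and robust variance, array weights, quantile normalization again, median centring, 2 filters, other limits, and leaving out single arrays. No genome or sequence was used here.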

Additional observations from a re-analysis of the deposited data

Results flagged for a closer look

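At2g34930 had a change with age that differed between the lines by the test of that difference. The change in rRBr minus that in Col-0 was 1.75 on the log2 scale (adjusted p = 0.00452, limma), with all 3 rRBr arrays at 10 das above both at 4 das and all 3 Col-0 arrays at 10 das below both at 4 das. Without replicate 1 or replicate 2 of rRBr at 4 das it did not pass (1.74, adjusted p = 0.0731, and 1.76, adjusted p = 0.0670). No group has more than 3 arrays, so that single arrays far from their group were not tested.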

How the results depend on the processing

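No difference between 10 and 4 das of a called gene changed sign, and calls depended on the fit. The 17 probe sets that were higher in rRBr became 0 with only the 7 rRBr arrays or the 5 compared, 42 without the 3 arrays with high root hair transcripts, 87 with array weights, 3 among probe sets with a mean of at least the median of all values, and 0 at an adjusted p under 0.01. Leaving out single rRBr arrays gave 0 to 7. The 0 lower ones became 6 without the 3 arrays and 14 with array weights. Called list members (1) became 0 with only the 7 or 5 rRBr arrays, with the filter and at an adjusted p under 0.01, 3 without the 3 arrays, 4 with array weights, and 0 to 1 without single arrays. Without replicate 1 of 10 das the 4 became 0 at an adjusted p under 0.01.

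In Col-0 the 12 higher became 26 with array weights, 5 at an adjusted p under 0.01, 7 at 2-fold, and 2 to 8 without single arrays. The 10 lower became 52 without the 3 arrays, 18 with trend and robust variance, 87 with array weights, 2 at an adjusted p under 0.01, and 1 to 16 without single arrays. The 1 difference between the lines became 4 without the 3 arrays, 24 higher and 1 lower with array weights, 3 after quantile normalization again, and 0 to 1 without single arrays. The causes were not tested, apart from the fewer arrays or probe sets that some settings hold.

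With the replicate number as a block, 29 probe sets were higher and 7 lower in rRBr (13 of the 17 among them), 0 higher without replicate 1 of 10 das, 2 list members higher, and 22 lower in Col-0. Of the named genes that rose, At5g47070 alone lost the call with the block, and EXGT-A3 gained it. With 2 and 3 arrays a group, the number of arrays limits the precision, and the p-values measure the spread between these arrays.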
